A study of Mus musculus and Rattus norvegicus with 8 samples.

Results

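The serine synthesis enzymes Phgdh and Psat1, and 7 genes of the response to amino acid shortage (Asns, Atf4, Ddit3, Trib3, Slc7a5, Slc3a2 and Ifrd1), were followed in the lungs of mechanically ventilated rodents. A probe set, the group of oligonucleotides that measures 1 transcript on an Affymetrix array, was taken when its only annotated gene symbol was 1 of these 9. This gave 9 of the 9933 genes and 25 of the 21162 probe sets of both arrays together. The mouse array held all 9 genes on 10 of its 12422 probe sets. The rat array held 8 genes on 15 of its 8740 probe sets, and Atf4 was not among them. The genes were chosen partly because Phgdh was higher after ventilation in both species, so their differences between ventilated and control lungs are given as a description, with a standard error and no p-value.

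The series asked which lung genes respond early to mechanical ventilation, with total RNA from whole lung on 8 arrays, 2 for each group. Ventilated mice were male C57BL6 animals 7 to 8 weeks old that received large tidal volumes, which was 17 ml/kg over 6 hours in one regimen and 35 ml/kg over 2 hours in the other, and the labels do not say which array came from which regimen. Control mice of the same strain, sex and age breathed spontaneously. Ventilated rats were male Wistar animals, 8 weeks old, given 12 ml/kg of room air for 5 hours. Control rats of the same strain, sex and age breathed on their own through the same kind of tracheal cannula. The labels do not say that control mice were cannulated. They name only separate samples, so a p-value here measures the spread between these samples. In whole lung, fewer cells of a type and less RNA per cell cannot be told apart.

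Cells make serine from the glycolytic intermediate 3-phosphoglycerate in a short pathway that Phgdh opens and in which Psat1 adds the amino group; serine then feeds glycine, one-carbon units and nucleotides. When amino acids run short or unfolded protein builds up in the endoplasmic reticulum, kinases phosphorylate the translation factor eIF2, general translation slows, and the mRNA of the transcription factor Atf4 is translated more. ATF4 protein binds composite elements of the C/EBP and ATF families (C/EBP-ATF response elements) in genes for amino acid synthesis, uptake and stress signalling, Asns being the classical example. Arrays measure mRNA, and neither eIF2 phosphorylation nor ATF4 protein was measured.

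Promoter sequences are shown for the enzymes that make serine and asparagine, because ATF4 is known to act on these genes. They are the 250 bases before the annotated mouse start site, from RefSeq on GRCm38.p6, printed 5′ to 3′ on the strand of the gene. Psat1 has a second annotated start site, which was searched too; the window of the upstream one is printed. Capitals mark the core of a C/EBP-ATF response element, TGATGNAA, searched on both strands.
Asns, chr6:7693210-7693459, minus strand: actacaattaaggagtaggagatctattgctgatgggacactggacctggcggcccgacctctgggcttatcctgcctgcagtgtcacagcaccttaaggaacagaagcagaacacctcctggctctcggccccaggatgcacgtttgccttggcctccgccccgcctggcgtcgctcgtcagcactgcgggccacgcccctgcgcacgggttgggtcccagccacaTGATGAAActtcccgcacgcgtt
Phgdh, chr3:98339970-98340219, minus strand: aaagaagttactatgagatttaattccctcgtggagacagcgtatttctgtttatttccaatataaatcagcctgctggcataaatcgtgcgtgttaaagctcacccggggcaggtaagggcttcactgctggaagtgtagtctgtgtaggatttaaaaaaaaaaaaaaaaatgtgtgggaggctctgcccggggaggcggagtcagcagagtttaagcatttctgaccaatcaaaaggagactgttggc
Psat1, chr19:15925060-15925309, minus strand: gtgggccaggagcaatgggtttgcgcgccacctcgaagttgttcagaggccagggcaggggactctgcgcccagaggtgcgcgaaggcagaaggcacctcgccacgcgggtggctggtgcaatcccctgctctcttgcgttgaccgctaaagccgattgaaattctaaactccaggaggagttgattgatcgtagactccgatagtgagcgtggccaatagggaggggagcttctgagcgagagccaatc
Of the 9 genes, 8 had a RefSeq promoter entry, and Slc7a5 had none. Among those 8, the core was found upstream of the start in Asns alone, as TGATGAAA at bases -23 to -16 counted from the start site. The same letters occurred in 3.45% of 32851 mouse windows of 250 bases. Extending the window to 50 bases after the start, where 3.97% of windows held the core, added 1 match in Trib3, on the opposite strand at bases 15 to 22, and is shown in its surrounding bases.
Trib3 core and flanks: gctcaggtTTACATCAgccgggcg
Neither the palindromic cyclic AMP response element TGACGTCA (1.55% of windows of 250 bases) nor the endoplasmic reticulum stress element (CCAAT and CCACG with 9 bases between them, 0.113%) was found in any of the 8. The absence of a match says only that these letters do not lie in this window.

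Signals below are array intensities made comparable within a species by quantile normalisation, in arbitrary units that cannot be set against each other between probe sets. Differences are log2 of ventilated over control, with signals below the 25th percentile of a species (14.25 in mouse, 11.48 in rat) raised to it. Arrays of a species correlated at Pearson r of 0.893 to 0.963 in mouse and 0.936 to 0.977 in rat over genes tested. In mouse, ventilated array 2 was closest to control array 1 (r = 0.963), while the ventilated arrays correlated with each other at 0.908 and the controls at 0.935. The 9 hybridisation control probe sets had a median signal of 2.62 times the control mean on ventilated array 1 and 0.96 times on ventilated array 2. Lung identity was checked from markers such as the surfactant genes: in mouse the 8 tested summed to 29405 and 27245 in ventilated lungs and to 29423 and 27915 in control lungs, and in rat the 10 tested summed to 14764 and 16108 in ventilated lungs and to 18061 and 18541 in control lungs.

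Phgdh, which catalyses the first and committed step of serine synthesis, was higher in every ventilated lung of both species. In mouse its single probe set read 34.7 and 35.0 in ventilated lungs, against 12.9 and 17.7 in control lungs. The ventilated mice were nearly equal to each other and did not overlap with the controls, 1 of which lay below the floor. The difference was 1.13 ± 0.41 (log2 ± SE, 2 arrays per group), with group means of 34.8 ± 0.256 in ventilated and 15.3 ± 3.38 in control lungs (SD, n = 2). In rat the brightest probe set read 146 and 138 in ventilated lungs, against 88.7 and 96.9 in control lungs, a difference of 0.61 ± 0.18. Again the groups did not overlap. A companion probe set of the same transcript read 69.8 and 67.4 in ventilated lungs and 29.4 and 32.5 in control lungs, a difference of 1.15. These probe sets share their target, so they are not independent measurements. The remaining, dim rat probe set for Phgdh read 8.18 and 29.1 in ventilated lungs and 2.53 and 5.83 in control lungs, with 3 of 4 arrays below the floor.

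By its brightest probe set, Psat1, the aminotransferase that follows Phgdh, was above both controls on both ventilated arrays in each species, but unevenly. Mouse Psat1 read 252 and 71.1 in ventilated lungs, against 54.5 and 66.3 in control lungs. The first ventilated mouse stood far above the rest, and the second was just above the higher control. The difference of 1.16 ± 0.61 was therefore made of 2.07 for ventilated array 1 and 0.24 for ventilated array 2, each over the control mean. In rat the brightest of 4 probe sets read 124 and 124 in ventilated lungs, against 97.2 and 99.6 in control lungs, a difference of 0.33 ± 0.17. The replicates of each group were close together and the groups were apart. A second rat probe set, with 120.1 and 105 in ventilated lungs and 86.3 and 64.0 in control lungs, gave 0.60. The companion of the brightest probe set, on the same transcript, did not follow it. That companion was dimmer, with 38.3 and 15.95 in ventilated lungs and 30.6 and 25.5 in control lungs, and gave -0.18 with overlapping groups. The last was below the floor on every array.

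**Figure D1:**
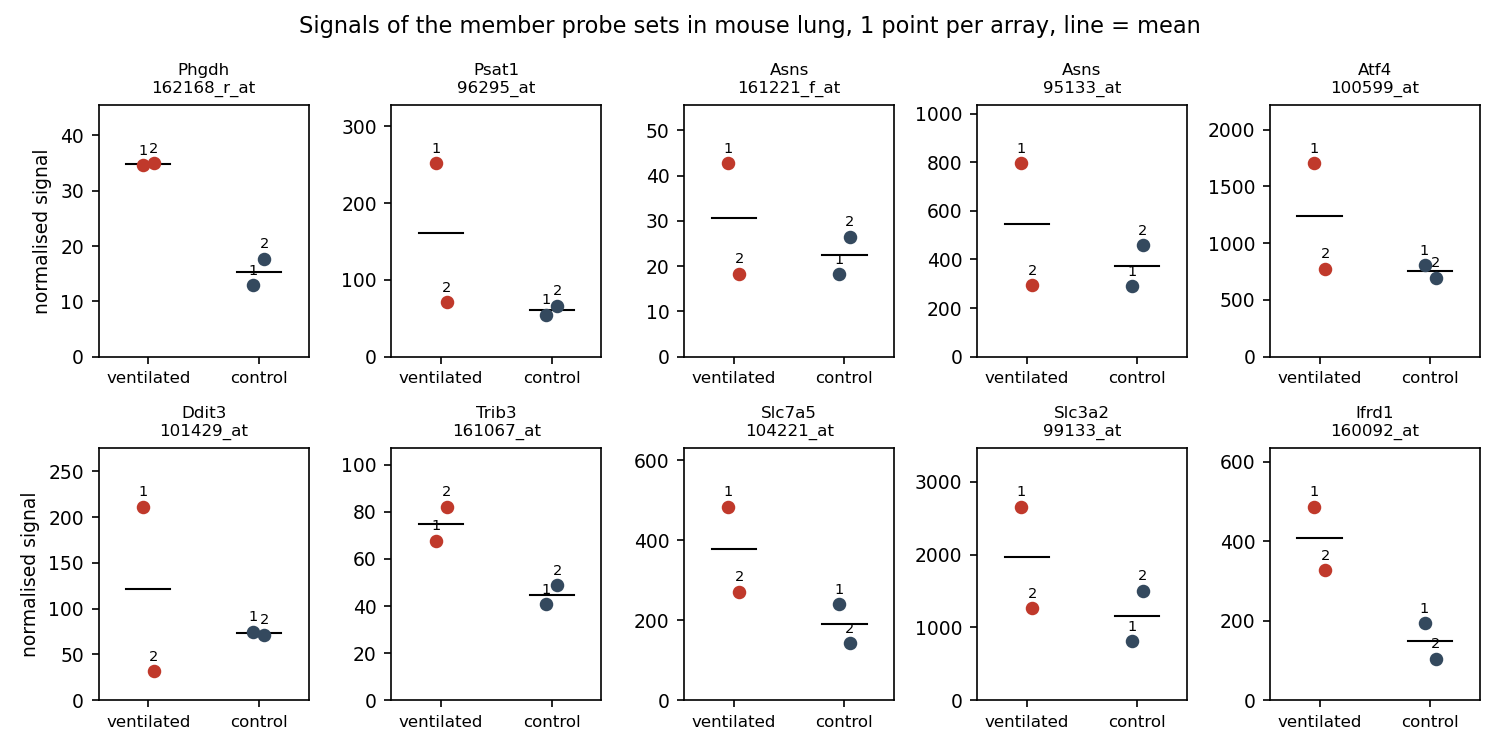
Normalised signal (arbitrary units, linear axis from 0) of the 10 mouse probe sets, 1 point per array, with ventilated lungs left of control lungs, replicate numbers above the points and a line at each group mean. Ventilated replicate 1 is the highest of the 4 arrays for Psat1, both Asns probe sets, Atf4, Ddit3, Slc7a5, Slc3a2 and Ifrd1, whereas the ventilated replicates of Phgdh nearly coincide at 34.7 and 35.0.

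The mouse differences of the transcription factors at the head of the response, like that of Psat1, were carried by ventilated array 1. Atf4 mRNA read 1705 and 773 in ventilated mouse lungs, against 807 and 696 in control lungs. Only the first ventilated mouse lay above both controls, so the groups overlapped, and the difference was 0.62 ± 0.39. Ddit3, which encodes CHOP, a C/EBP-family factor induced downstream of ATF4, read 212 and 31.9 in ventilated mice, against 74.7 and 71.6 in control mice. Its ventilated values lay on either side of 2 close controls: ventilated array 1 was 1.53 above the control mean and ventilated array 2 stood at -1.20. The resulting 0.17 ± 0.83 has the widest standard error of the 9 mouse genes. In rat, Ddit3 read 266 and 258 in ventilated lungs, against 216 and 241 in control lungs, a difference of 0.20 ± 0.15 with groups that did not overlap.

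Targets of the pathway followed different patterns. Asns, which makes asparagine from aspartate with nitrogen from glutamine, read 797 and 293 in ventilated mouse lungs, against 289.9 and 459 in control lungs. The groups overlapped: ventilated array 1 was highest and ventilated array 2 lay beside the lower control, for a difference of 0.41 ± 0.51. A second, dimmer mouse probe set had the same order at the top, with 42.8 and 18.3 in ventilated and 18.2 and 26.5 in control lungs. Rat Asns showed no separation, at 76.6 and 82.1 in ventilated and 85.2 and 69.1 in control lungs (0.05 ± 0.21).

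Trib3, a pseudokinase induced by ATF4 and CHOP that restrains both ATF4 and the kinase Akt, was 1 of 2 mouse members highest on ventilated array 2, the other being Phgdh. It read 67.8 and 82.3 in ventilated mice, against 40.8 and 48.9 in control mice, a difference of 0.74 ± 0.36. The groups did not overlap. In rat the brighter Trib3 probe set read 81.1 and 59.2 in ventilated lungs and 55.3 and 83.2 in control lungs. Its difference was 0.03 ± 0.29, and the groups overlapped fully. The dimmer one read 41.35 and 24.7 in ventilated lungs and 16.4 and 36.65 in control lungs. It gave 0.38, also with overlapping groups.

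Ifrd1, a transcriptional co-regulator whose mRNA is known to accumulate in stressed cells, was higher in every ventilated lung of both species. It read 487 and 326 in ventilated mouse lungs, against 193 and 104 in control lungs. Both ventilated mice exceeded both controls, with 1.78 and 1.20 over the control mean, and the difference was 1.49 ± 0.40. In rat Ifrd1 read 204 and 195 in ventilated lungs, against 112 and 161 in control lungs, a difference of 0.57 ± 0.22. The rat groups did not overlap either, and the spread lay in the controls.

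The heavy and light chains of the large neutral amino acid exchanger were measured in both species. Slc7a5 is the transporting light chain LAT1, and Slc3a2 is the glycoprotein CD98 that carries it to the membrane and also pairs with other light chains. Mouse Slc7a5 read 484 and 271 in ventilated lungs, against 240.2 and 143 in control lungs, a difference of 0.97 ± 0.41. Mouse Slc3a2 read 2663 and 1263 in ventilated lungs, against 810.1 and 1504 in control lungs, a difference of 0.73 ± 0.44. For Slc7a5 both ventilated mice lay above both controls, while for Slc3a2 the second ventilated mouse lay between the controls. Rat Slc7a5 read 97.6 and 112 in ventilated lungs and 90.6 and 107 in control lungs, overlapping, with 0.09 ± 0.20. Rat Slc3a2 was the 1 member lower in both ventilated rats, at 882 and 967 against 1080 and 1151 in control rats, a difference of -0.27 ± 0.11. Its second probe set was also lower, at 578 and 578 in ventilated rats against 743 and 808 in control rats (-0.42). The difference between the species was not tested.

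**Figure D2:**
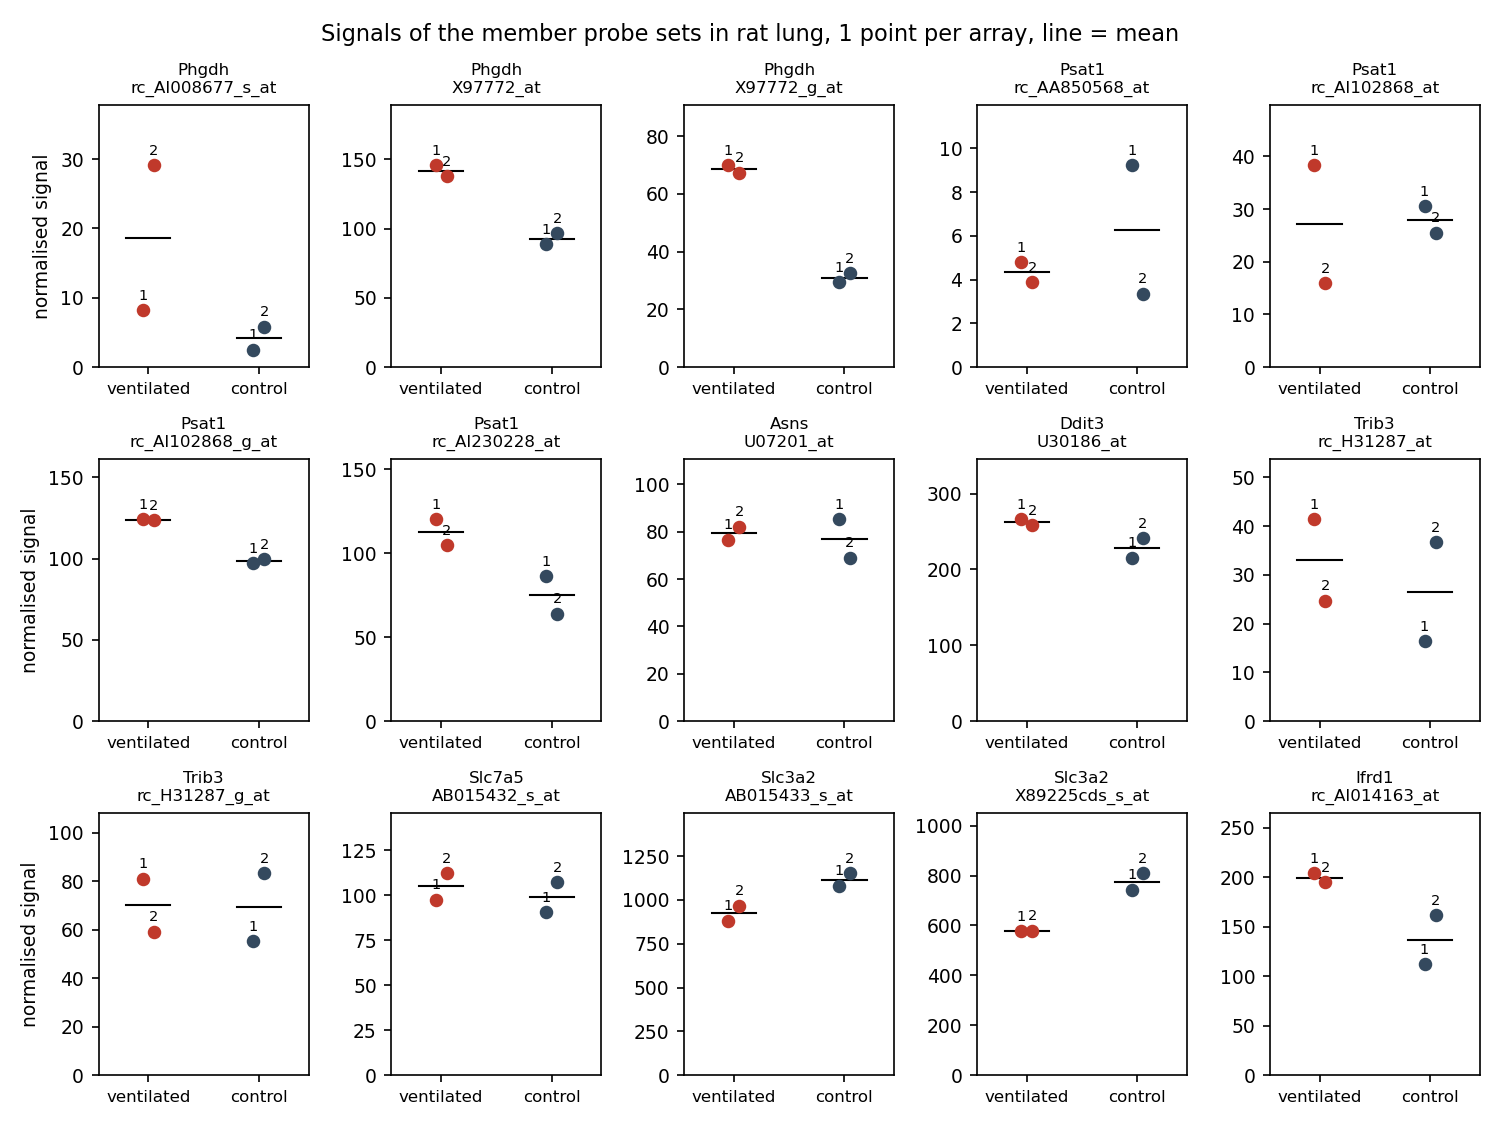
Normalised signal (arbitrary units, linear axis from 0) of the 15 rat probe sets, 1 point per array, with ventilated lungs left of control lungs and a line at each group mean. Ventilated points of the 3 Phgdh probe sets and of Ifrd1 lie above the control points, and those of both Slc3a2 probe sets lie below them.

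**Figure D3:**
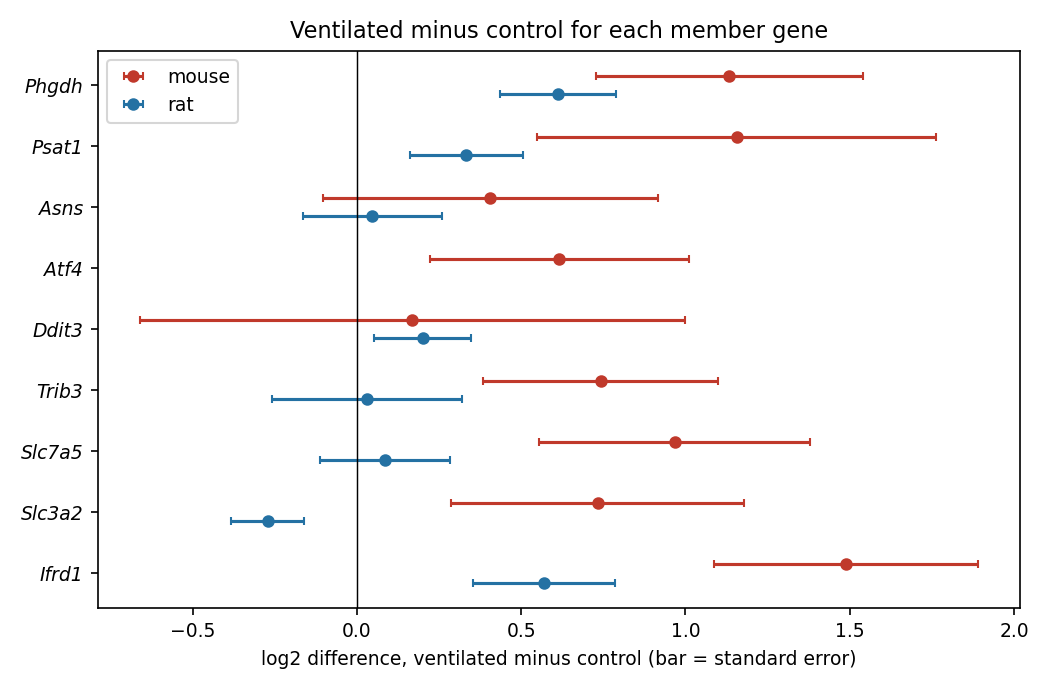
Log2 difference, ventilated minus control, for each member's brightest probe set in mouse and in rat, with bars of 1 standard error (2 arrays per group). The 9 mouse points lie at 0.17 to 1.49, and the 8 rat points at -0.27 to 0.61.

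Counted over the members, all 9 mouse differences and 7 of 8 rat differences were positive, against 46.8% of the 6888 genes tested in mouse and 49.3% of the 3876 in rat. Every member present on an array passed the filter on low signal. The median member difference was 0.74 in mouse, where all genes had a median of -0.03, and 0.14 in rat, where all genes had -0.01. Both ventilated arrays lay above both controls for 5 of 9 mouse members (Phgdh, Psat1, Trib3, Slc7a5 and Ifrd1; 13% of all genes) and for 4 of 8 rat members (Phgdh, Psat1, Ddit3 and Ifrd1; 27.8%). They lay below both controls for 1 of 8 rat members, Slc3a2, against 27.2% of all genes. Of the 2256 genes tested in both species, 73 (3.24%) lay above the controls in both, and Phgdh, Psat1 and Ifrd1 were among them. A difference of at least 1 was reached by 3 of 9 mouse members (Phgdh, Psat1 and Ifrd1; 2.29% of all genes) and by 0 of 8 rat members (3.38%). Since the members were chosen on this contrast, nothing further is read from these counts.

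No member was among the genes called by limma's moderated test at an adjusted p under 0.05 in either species. Because the members were chosen partly on this contrast, that outcome is a description and not a test of them. In mouse the test called 0 of all 6888 genes (0%), with 178 at an unadjusted p under 0.05 (2.58%) and a smallest adjusted p of 0.9997. In rat it called 224 of 3876 genes (5.78%), 96 higher (2.48%) and 128 lower (3.3%).

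The mouse members were divided by which ventilated array carried the difference. Ventilated array 1 was the highest of the 4 arrays for 7 of 9 members, against 29.5% of all genes tested, and the median over the control mean was 1.27 on ventilated array 1 and 0.24 on ventilated array 2. Without ventilated array 1, the differences of Asns (-0.32) and Ddit3 (-1.20) became negative, and those of Atf4 (0.05), Slc3a2 (0.19), Psat1 (0.24) and Slc7a5 (0.55) shrank by more than 1.5 times. Those of Phgdh (1.14), Trib3 (0.88) and Ifrd1 (1.20) stayed close to their values over both arrays. The summed signal of 13 neutrophil markers, led by the calgranulin gene S100a8, was 10573 on ventilated array 1 and 2209 on ventilated array 2, against 1304 and 2526 in control lungs, with 1 or 2 of the 13 at the floor on each array. The 13 proliferation markers summed to 1076 and 1787 in ventilated lungs, against 1456 and 1171 in control lungs. For the 11 T cell and thymocyte markers the sums were 877 and 1050, against 996 and 736. Fat markers (7) gave 1451 and 1118, against 1256 and 1491. Hepatocyte markers (8) gave 501 and 548, against 474 and 764, and pancreas markers (4) gave 358 and 404, against 394 and 306. The part of these markers, of the hybridisation controls and of the unrecorded regimen in the member values was not tested.

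**Figure D4:**
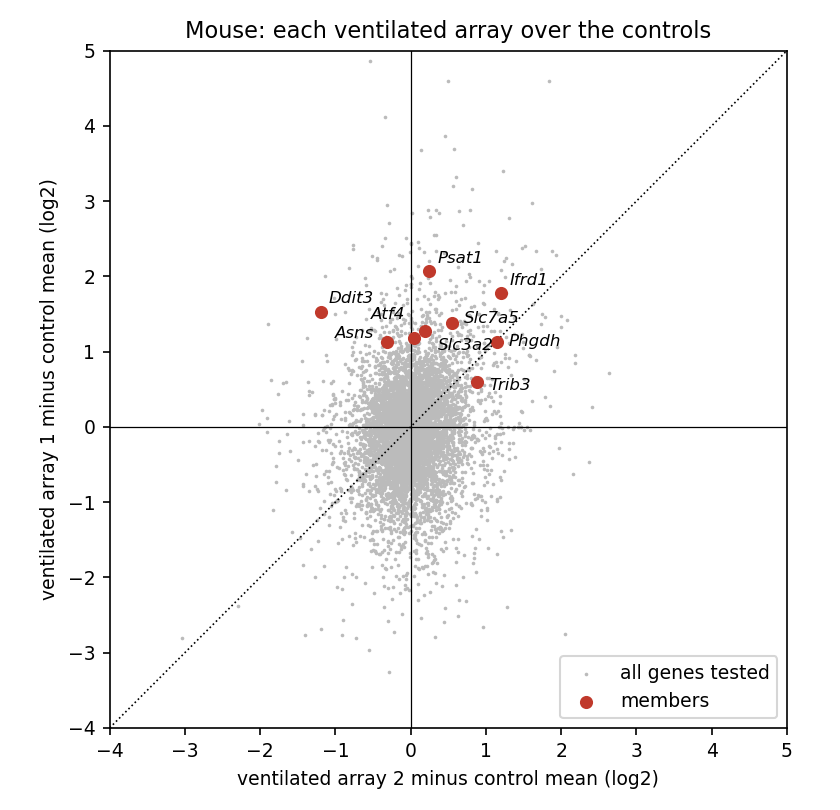
Ventilated array 1 (vertical) against ventilated array 2 (horizontal), each minus the control mean on the log2 scale, for 6888 mouse genes tested (grey) and the 9 members (red), with a dotted line where both are equal. Most members lie above the dotted line, with Psat1 at 2.07 and 0.24; Phgdh is next to the line, Trib3 is under it, and Ddit3 and Asns lie left of 0.

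In rat the arrays of a group were more alike, and the member medians were 0.24 on ventilated array 1 and 0.18 on ventilated array 2. Leaving out control array 1 lowered the rat difference of Ifrd1 to 0.31 and that of Ddit3 to 0.12. The small rat differences of Asns, Trib3 and Slc7a5 each changed sign in 2 of 4 cases when an array was left out, and that of Phgdh stayed at 0.55 to 0.68.

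Several lists of markers of other cells separated the rat groups, and the exocrine pancreas list did not. The lists were chosen with earlier results of these data known, so the calls within them are a description and not independent support. The 6 pancreas markers summed to 225 and 238 in ventilated rats against 229 and 260.5 in control rats, with 2 of 6 positive and a median of -0.09. The 11 T cell and thymocyte markers summed to 7490 and 8287 in ventilated rats, against 902 and 774 in control rats, and 10 of them were called higher (adjusted p under 0.05 by limma). The 8 fat markers, led by Ucp1, summed to 3385 and 3680 in ventilated rats against 1755 and 1611 in control rats, with 6 called higher; the other 2, Lep and Lpl, were lower in both ventilated rats. The 7 proliferation markers summed to 1721 and 1546 in ventilated rats against 1085 and 1022 in control rats, with 1 called higher. Of the 10 lung markers, 0 had a positive difference, and the median was -0.20. Both ventilated arrays lay below both controls for 8 of these 10 (27.2% of all genes), and 2 were called lower. Over all rat genes tested, 2.48% were called higher and 3.3% lower. The 11 hepatocyte markers summed to 2021 and 2029 in ventilated rats against 1460 and 1521 in control rats, with 2 called higher, and the 7 neutrophil markers to 5730 and 5417 in ventilated rats against 4450 and 4556 in control rats, with 1 called higher. At most 1 of the T cell markers, at most 2 of the hepatocyte markers, and none of the fat, neutrophil or proliferation markers were at the floor on any rat array. Whether tissue other than lung contributed to the rat values of Phgdh, Psat1 and Ifrd1 was not tested.

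Around the members, 155 genes of amino acid metabolism and stress were listed in 7 groups, members left out. These groups too were chosen with earlier results of these data known, so counts within them are a description. In mouse 102 were tested, 70 differences were positive and 0 were called by limma; the median was 0.21, with 0.28 on ventilated array 1 and 0.05 on ventilated array 2. In rat 70 were tested, 36 differences were positive, 0 were called higher and 3 were called lower (3.3% of all genes were called lower), and the median was 0.03.

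Other ATF4 and CHOP partners and targets had a mouse median of 0.46, with 14 of 16 positive; the median was 0.81 on ventilated array 1 and 0.06 on ventilated array 2. Atf3, a stress-induced repressor of the same factor family, read 325 and 404 in ventilated mice, against 107 and 130 in control mice (1.62 ± 0.30; adjusted p = 0.9997 by limma). Ddit4, an inhibitor of the growth kinase mTORC1, read 469 and 1183 in ventilated mice, against 283 and 241 in control mice (1.51 ± 0.45). Cebpb, which pairs with ATF4, read 1604 and 1779 in ventilated mice, against 868 and 1006 in control mice (0.85 ± 0.23). Gadd45a, a growth arrest gene, read 255 and 172 in ventilated mice, against 132 and 110.2 in control mice (0.79 ± 0.34). These 4 have the smallest p of their group, so their separation from the controls was selected. In the whole group, these 4 included, both ventilated arrays lay above both controls for 7 of 16 genes (13% of all genes). They lay below both controls for 1 of 16 (14.5%). None passed the test.

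In rat the same group had a median of 0.16, with 6 of 11 positive and 2 called lower. Both ventilated arrays lay above both controls for 4 of 11 (27.8% of all genes) and below them for 3 (27.2%). Vegfa, the endothelial growth factor, fell to 225 and 230.2 in ventilated rats, against 371 and 359 in control rats (-0.68 ± 0.13; adjusted p = 0.0412 by limma). Its other 3 probe sets were also lower, by -0.37 to -0.55. The Vegfa call was lost under 6 of 13 other settings, with adjusted p of 0.0596 after scaling to a common median, 0.121 with the mean of probe sets and 0.0989 with the replicate block. Eif4ebp1, the translation repressor that mTORC1 switches off, fell on its brightest probe set to 248 and 293 in ventilated rats, against 483 and 640 in control rats (-1.04 ± 0.18; adjusted p = 0.0320 by limma). Its other 2 probe sets were higher in ventilated rats, by 0.29 and 0.25, so the gene has no settled direction, and with the mean of probe sets its adjusted p was 0.485. Nupr1, a stress-induced chromatin protein, read 295 and 327 in ventilated rats, against 225 and 183 in control rats (0.61 ± 0.17), and Gadd45a had 0.42 ± 0.13; neither passed the test.

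Of the genes that act with Phgdh and Psat1, Psph, which completes serine synthesis, read 154 and 143 in ventilated mice, against 127 and 123 in control mice, a difference of 0.25 ± 0.30. Mthfd2, a mitochondrial one-carbon enzyme, read 538 and 194 in ventilated mice, against 210.1 and 211 in control mice (0.61 ± 0.49), high on ventilated array 1 alone. The serine, glycine and one-carbon group had 5 of 9 positive and a median of 0.23 in mouse, and 4 of 9 positive and a median of -0.00264 in rat. In rat Sds, which breaks serine down, read 15.2 and 20.4 in ventilated rats against 65.4 and 26.9 in control rats (-1.26 ± 0.46; adjusted p = 0.157 by limma). Aldh1l1, which consumes one-carbon units, had -0.997 ± 0.324, and Tyms, thymidylate synthase, had 0.85 ± 0.37. None of these passed the test.

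Upstream, the eIF2 kinases and machinery had small median shifts in both species, with larger differences for single genes. Mouse Ppp1r15a, the stress-induced subunit that directs a phosphatase to eIF2, read 208 and 253 in ventilated mice, against 139 and 135 in control mice (0.75 ± 0.29). Dnajc3, a chaperone that inhibits an eIF2 kinase, had 0.51 ± 0.27 in mouse. Of the eIF2 kinases listed, Eif2ak1 read 162 and 177 in ventilated mice, against 197 and 217 in control mice (-0.29 ± 0.29). Eif2ak2 had -0.61 ± 0.54 with overlapping groups, and read 14.35 on ventilated array 1, just above the floor of 14.25. The mouse genes named here were picked by smallest p, and the kinases Eif2ak3 and Eif2ak4 were not among them. No direction of the kinases as a set is read. Eif2s1, the eIF2 subunit that is phosphorylated, read 353 and 370.0 in ventilated rats, against 241 and 235 in control rats (0.60 ± 0.14; adjusted p = 0.0572 by limma). In all, 11 of 16 were positive in mouse with a median of 0.08, and 8 of 12 in rat with a median of 0.21, and 0 were called in either. Both ventilated arrays lay above both controls for 5 of 16 in mouse (13% of all genes) and below them for 1 (14.5%). In rat they lay above for 5 of 12 (27.8% of all genes) and below for 3 (27.2%).

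Among other amino acid transporters, 9 of 12 mouse differences (median 0.28) and 3 of 7 rat differences (median -0.16) were positive. Both ventilated arrays lay above both controls for 1 of the 12 in mouse (13% of all genes) and below them for 2 (14.5%). In rat they lay above for 1 of the 7 (27.8% of all genes) and below for 2 (27.2%). Slc7a7, a light chain that exports basic amino acids with CD98, read 69.8 and 89.8 in ventilated mice, against 106 and 174 in control mice (-0.78 ± 0.38), and the taurine transporter Slc6a6 had -0.59 ± 0.42 with overlapping groups. Slc38a4, a neutral amino acid transporter, read 379.8 and 70.5 in ventilated mice, against 75.4 and 65.4 in control mice (1.22 ± 0.75). Slc7a11, the cystine importer that also uses the CD98 heavy chain, read 53.1 and 8.18 in ventilated mice, against 12.1 and 8.68 in control mice, so that only ventilated array 1 exceeded the floor. Slc6a9, the glycine transporter GlyT1, fell to 121 and 169 in ventilated rats, against 326 and 333 in control rats (-1.20 ± 0.20; adjusted p = 0.0277 by limma). All 3 calls were lost with the floor at the 40th percentile, with no filter and with no variance trend. The calls of Slc6a9, Vegfa and Eif4ebp1 were each lost also when any 1 rat array was left out, with adjusted p of 0.145 to 0.325 for Eif4ebp1, 0.153 to 0.317 for Vegfa and 0.166 to 0.317 for Slc6a9.

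The aminoacyl-tRNA synthetases charge tRNAs, and ATF4 is known to control many of them. Their group also listed Aimp1, Aimp2 and Eef1e1, accessory proteins of the synthetases that charge no tRNA. It had a mouse median of 0.47 on ventilated array 1 and -0.05 on ventilated array 2, with 13 of 21 genes positive. Cars, the cysteine enzyme, read 139 and 85.6 in ventilated mice, against 68.6 and 39.8 in control mice (1.06 ± 0.44), while Wars, the tryptophan enzyme, had -0.57 ± 0.27. In rat 4 of 5 genes of this group were positive, Aimp2 included, with a median of 0.14. Enzymes of other amino acids gave 6 of 13 positive in mouse and 7 of 16 in rat, with medians of -0.05 in mouse and -0.13 in rat. Within them Arg2, the mitochondrial arginase, read 246 and 83.8 in ventilated mice, against 41.7 and 49.0 in control mice (1.67 ± 0.55), and Got2, the mitochondrial aspartate aminotransferase, read 266 and 171 in ventilated rats, against 347 and 530.4 in control rats (-1.01 ± 0.28; adjusted p = 0.0934 by limma). In the other direction, mouse Asl, argininosuccinate lyase, had -0.62 ± 0.40, and rat Odc1, which opens polyamine synthesis, had 0.66 ± 0.23; neither passed the test. Endoplasmic reticulum folding genes, which other arms of the unfolded protein response control, had 12 of 15 positive in mouse (median 0.27) and 4 of 10 in rat (median -0.02). Of these, Manf had 0.58 ± 0.29 in mouse, and the chaperone Hspa5 had 0.47 ± 0.30 with overlapping groups. In rat, Hsp90b1 had -0.47 ± 0.11 and Dnajb9 had 0.57 ± 0.22. None of them passed the test.

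**Figure D5:**
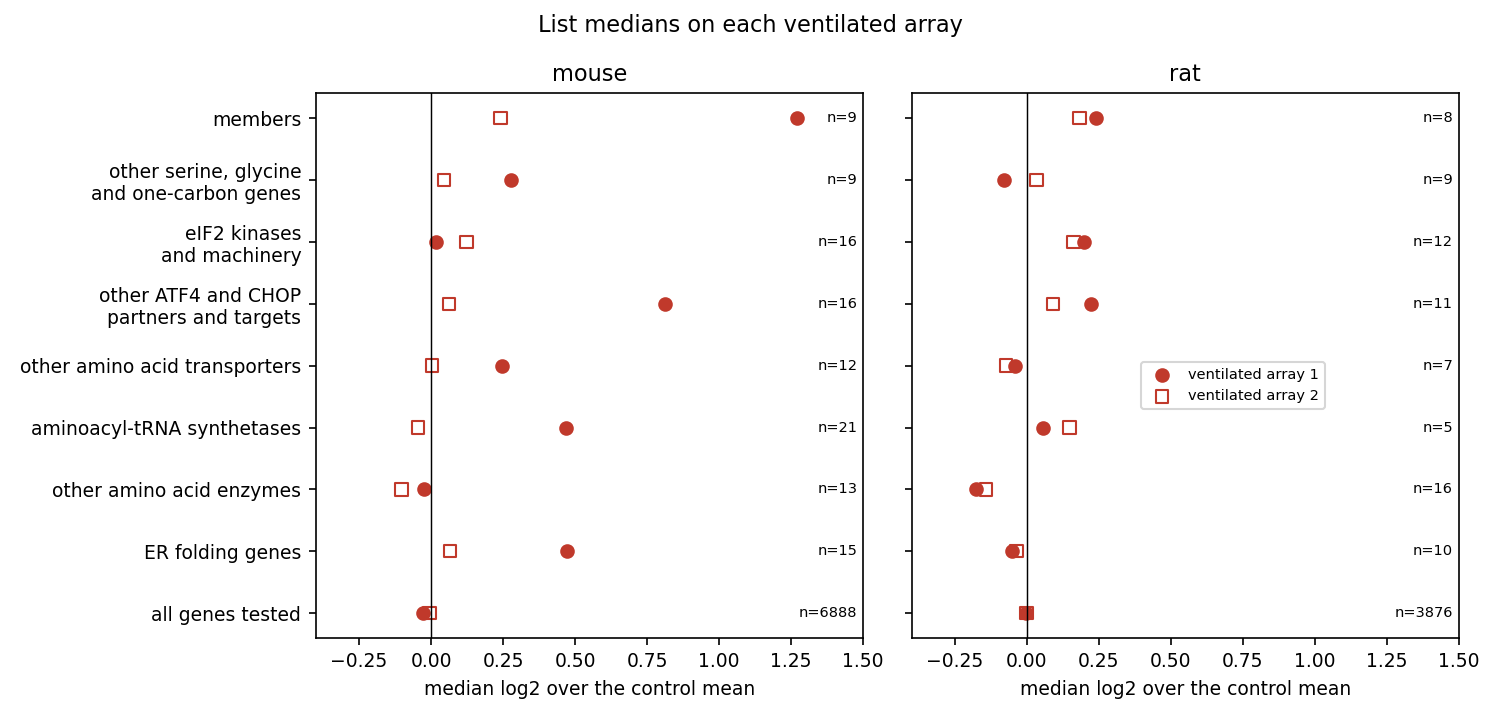
Median log2 value over the control mean on ventilated array 1 (filled circles) and ventilated array 2 (open squares) for the members, the 7 surrounding groups and all genes tested, in mouse (left) and rat (right), with the number of genes tested at the right edge. The mouse members (1.27 and 0.24) and the other ATF4 and CHOP partners and targets (0.81 and 0.06) have the widest gaps between arrays, and both rat symbols of each list lie close together.

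Likeness of pattern was measured as Pearson r over the 8 arrays, after subtracting each species' mean, among the 2256 genes tested in both species. It includes the difference between the groups, which chose Phgdh. The 5 genes most like Phgdh were Atf3 (r = 0.977), Pmpca (0.972), Pawr (0.958), Vamp3 (0.935) and Prkab1 (0.914). Atf3 in rat read 171 and 157 in ventilated lungs, against 94.6 and 125 in control lungs (0.59 ± 0.20; adjusted p = 0.139 by limma). Among members, Ifrd1 (0.817), Trib3 (0.769) and Psat1 (0.664) were nearer to Phgdh than Slc7a5 (0.619), Slc3a2 (0.479), Asns (0.35) and Ddit3 (0.116). Asns was most like Ampd3, Gsr and Pdia6 (each 0.969), and among members most like Slc3a2 (0.877), Psat1 (0.876) and Ddit3 (0.843). Each of these genes was high on mouse ventilated array 1. In rat, Ampd3, Gsr and Pdia6 had differences of only 0.03, 0.01 and -0.0009, and Asns itself had 0.05. These correlations are descriptions over 8 arrays that share their groups.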

How the data were processed

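The deposited values are probe-set intensities on a linear scale, 1 column per array, from Affymetrix MG_U74Av2 (mouse) and rat arrays per the labels; trimmed means near 150.1 in mouse and 149.5 in rat show that the authors scaled the arrays. Which software and scaling target they used is not stated in the sources used here, nor are detection calls. Control probe sets were left out. Probe sets were named from the supplied platform annotation: 10833 mouse sets had 1 symbol, 396 several and 1193 none; 7006 rat sets had 1, 308 several and 1426 none. Within each species, intensities were quantile normalised, raised to the 25th percentile and taken as log2; each gene kept its brightest probe set, and genes with a mean above that percentile were tested. limma 3.58.1 in R 4.3.3 (lmFit, eBayes with a variance trend) compared ventilated with control, with Benjamini-Hochberg adjustment over all genes of a species; the scripts were tested on simulated data. The labels do not say what a replicate number shares, and samples were not paired by it in the main fit. Same-number deviations correlated at -0.285 in mouse and -0.106 in rat. The 9 members and all lists were chosen with earlier results of these data known. Named genes are the members, at most 4 genes per list and species by smallest unadjusted p, any list gene called, the 5 genes most like Phgdh and the 3 most like Asns. Alternatives were other normalisations, floors, filters, probe-set rules and variance models, the replicate block, and leaving out each array. Only 2 arrays per group limit the precision.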

Additional observations from a re-analysis of the deposited data

Results flagged for a closer look

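In 5 of the 37 member and named list genes tested in both species (13.5%), both ventilated arrays lay on one side of both controls in mouse and on the other side in rat. The same held for 205 of all 2256 genes tested in both (9.09%), so nothing particular to these 5 is read from the count. The difference between the species was not tested, and no value below passed limma's adjusted threshold. Ppp1r15a had a log2 difference of 0.75 in mouse and -0.30 in rat, where it read 142 and 174 in ventilated lungs, against 183 and 204 in control lungs. Cebpb had 0.85 in mouse and -0.21 in rat, where it read 798 and 847 in ventilated lungs, against 1011 and 892 in control lungs. Ahcy, which splits S-adenosylhomocysteine in the methionine cycle, had -0.49 in mouse and 0.27 in rat. Bckdha, a subunit of the branched-chain keto acid dehydrogenase, had -0.42 in mouse and 0.33 in rat. Aimp2, a scaffold of the multi-synthetase complex, had -0.30 in mouse and 0.97 in rat.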

How the results depend on the processing

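Settings that alter only the test or the genes tested cannot move a member's difference. Of those that can, common-median scaling set rat Psat1 at 0.36, the deposited values without further normalisation at 0.27 and the mean of probe sets at 0.19, and the mean of probe sets set rat Phgdh at 0.81. Rat Slc3a2 was -0.15 and rat Ddit3 was 0.30 after scaling to a common median. Mouse Asns (-0.32) and Ddit3 (-1.20) became negative without ventilated array 1. A floor at the 40th percentile, which exceeds every mouse Phgdh signal, gave mouse Phgdh a difference of 0, and a filter at the 50th percentile removed mouse Phgdh and Trib3. Rat Asns and Trib3 were -0.01 and -0.04 with the values as deposited. In mouse, 0 genes and 0 pathway-list genes were called by limma under every alternative, with 100 to 641 genes at an unadjusted p under 0.05 when an array was left out. In rat, the 224 genes called became 23 with the floor at the 40th percentile, 39 with no filter and 61 with no variance trend. The 3 pathway-list genes became 0 under each of these and 1 with the mean of probe sets. With every probe set tested separately, where a gene can have several, the count was 6 and cannot be set beside the 3 genes. Leaving out any 1 rat array, with the lone array left in its group assumed to vary like the other group, gave 0 genes and 0 pathway-list genes, with 536 to 883 at an unadjusted p under 0.05. With the replicate block, 146 rat genes and 2 pathway-list genes were called, and 0 in mouse. With the numbers crossed in the block, 232 rat genes and 0 mouse genes were called. That crossed block put 411 mouse genes at an unadjusted p under 0.05 by limma, against 178 in the main fit. The causes were not tested. With 2 arrays per group and mouse Phgdh near the floor, the size of its difference is poorly set.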
